A study of Mus musculus with 4 samples.

Results

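The TGF-beta system of the lung was followed here through 10 genes chosen by name from the 32285 genes measured: the ligands Tgfb1, Tgfb2 and Tgfb3, the receptors Tgfbr1, Tgfbr2 and Tgfbr3, and the latent TGF-beta binding proteins Ltbp1, Ltbp2, Ltbp3 and Ltbp4. The 10 genes were read by single-cell RNA sequencing (10x Genomics) of mouse alveolospheres, organoids in which alveolar type 2 (AT2) cells, taken as LysoTracker-positive epithelial cells, grow together with PDGFRα-positive lung fibroblasts. The conditions compared were control and knockdown, with 2 libraries each. In the control libraries both cell types were wildtype. In the knockdown libraries wildtype AT2 cells were cultured with fibroblasts in which YAP and TAZ, the transcriptional co-activators at the end of the Hippo pathway, were knocked down under a PDGFRα-specific design. Both conditions received doxycycline at 3 µg/ml, dissolved in DMSO, starting at day 7, and were collected at day 14, so the drug was common to controls and knockdown. The construct behind the knockdown and the part of each transcript it acts on were not stated in any source consulted. The labels name the replicates as biological but do not tie them to separate animals, so the p-values below measure the spread between libraries, which may in part be technical.

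TGF-beta is secreted in a latent form. The ligand stays bound to its own propeptide, and that complex is usually disulfide-linked to an LTBP, which anchors it in the extracellular matrix until integrins, proteases or other activators release it. The freed ligand binds TGFBR2, which phosphorylates TGFBR1, and TGFBR1 phosphorylates SMAD2 and SMAD3; TGFBR3, or betaglycan, is a co-receptor that presents ligand, TGFB2 above all. In the lung the pathway is known for driving fibroblasts towards matrix-producing myofibroblasts and for restraining epithelial growth. LTBP1, LTBP3 and, weakly, LTBP4 bind latent TGF-beta, whereas LTBP2 does not and is a protein of the elastic fibre and microfibril matrix.

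The 10 genes lie on 8 chromosomes of GRCm38, with gene spans in the GENCODE M21 annotation of 17.6 kb for Ltbp3 to 387 kb for Ltbp1. The members with the clearest differences below were Ltbp2 (ENSMUSG00000002020, chromosome 12, 84783212 to 84876532, minus strand) and Ltbp3 (ENSMUSG00000024940, chromosome 19, 5740904 to 5758532, plus strand). Their upstream sequences are printed because these genes moved in opposite directions in the same fibroblasts, and because SMAD proteins act on DNA next to such starts. The letters come from the RefSeq promoter table (GRCm38.p6), read 5′ to 3′ on the strand of the gene, with the SMAD-type motif GTCTG or its reverse complement CAGAC in capitals. The first covers chr12:84876533-84876741 upstream of the Ltbp2 span and the second chr19:5740650-5740899 upstream of Ltbp3.
Ltbp2: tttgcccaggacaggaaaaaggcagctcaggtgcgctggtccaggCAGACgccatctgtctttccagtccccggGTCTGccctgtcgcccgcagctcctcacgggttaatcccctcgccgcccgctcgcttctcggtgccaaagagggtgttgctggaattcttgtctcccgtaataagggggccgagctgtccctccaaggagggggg
Ltbp3: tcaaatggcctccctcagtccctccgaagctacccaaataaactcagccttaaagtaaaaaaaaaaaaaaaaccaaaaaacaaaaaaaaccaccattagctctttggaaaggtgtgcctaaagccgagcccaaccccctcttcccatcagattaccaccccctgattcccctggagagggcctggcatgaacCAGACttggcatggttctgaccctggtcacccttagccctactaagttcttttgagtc
The Ltbp2 sequence holds 2 matches and the Ltbp3 sequence 1. The table held windows of 250 bases for 8 members, 12 windows in all. The SMAD-type motif was present on either strand in 7 of the 12, and in 42.2% of all 32851 windows of that length. The TEAD-type motif GGAATG, named for the DNA-binding partners of YAP and TAZ, was in 0 of the 12 windows and in 12.6% of all windows. The AP-1-type motif TGANTCA was in 0 of the 12 and in 6.75% of all. A match to these letters describes the window and is no binding site, and the absence of a match says nothing about the factor.

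The libraries held 15000 and 13883 control cells and 10545 and 6508 knockdown cells, with 44284602 to 71523447 unique molecular identifiers (UMIs, one per captured RNA molecule) each. Cell classes were those of the authors' deposited annotation, grouped into a fibroblast compartment (5123 to 12041 cells per library) and an epithelial compartment (1274 to 2589 cells per library). Counts were summed per library over each compartment, and levels are normalised CPM, the share of a sum's UMIs that a gene holds, in parts per 1e6 after TMM normalisation. Values follow the order control 1, control 2, knockdown 1 and knockdown 2. Of the knocked-down genes, Yap1 read 61.3, 64.9, 40.9 and 36.4 CPM in the fibroblasts and fell (log2 change −0.71 ± 0.11 SE, edgeR adjusted p = 0.00864). Wwtr1, which encodes TAZ, read 239, 231, 194 and 172 CPM there (−0.36 ± 0.13, adjusted p = 0.115). In the epithelium the changes were −0.17 ± 0.16 for Yap1 and −0.37 ± 0.19 for Wwtr1 (adjusted p = 0.697 and 0.486). The fibroblast marker list of 9 genes summed to 6512 to 9518 CPM in the fibroblasts and 423 to 961 CPM in the epithelium. The AT2 marker list of 10 genes summed to 24718 to 51034 CPM in the epithelium. In the fibroblast sums the AT2 markers read 816, 896, 2398 and 1204 CPM, with 4 of 10 higher in the knockdown by the test, the cycling markers read 108, 124, 51.2 and 65.1 CPM, with 3 of 3 lower, and the basal-cell markers read 18.3, 13.1, 1.38 and 1.75 CPM, with 4 of 4 lower. Defining immune markers were low, at 6.96 to 11 CPM in the fibroblast sums, with 1 of 5 at 0 in every library. The part of these differences in the results below was not tested.

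The cells that carried each ligand differed. Tgfb1, the isoform most often studied in fibrosis, was highest in myofibroblast-like cells among the 12 classes with at least 50 cells in every library, at 177 ± 66.8 CPM (SD, n = 4 libraries; levels across classes are plain CPM and carry no test, since the classes were made from expression). It was lowest in AT2 cells, at 16.5 ± 6.92 CPM. Over all 4 libraries the ranges of every pair of neighbouring classes in that order overlapped for Tgfb1. Within each library the myofibroblast-like level stood above that of inflammatory fibroblasts-2, the next class, by 1.75, 2.52, 1.91 and 2.70-fold in control 1, control 2, knockdown 1 and knockdown 2. The fibroblast classes found almost only in the knockdown libraries, named Tgfbi+ and Wnt4+ by the authors, read 199 ± 36.9 and 154 ± 26.5 CPM in those 2 libraries. Tgfb2 was instead highest in the epithelium, with its top level in AT1-like cells (176 ± 25.3 CPM, libraries 142 to 198) and then in transitional epithelial cells (133 ± 6.57 CPM, libraries 127 to 142). These 2 ranges nearly touched, at 141.93 CPM in AT1-like cells of control 1 and 141.78 CPM in transitional cells of knockdown 1. The transitional range did not overlap that of the next class. Myofibroblast-like cells followed at 57.6 ± 2.61, EMT-like cells at 50.03 ± 7.28 and cycling AT2 cells at 48.0 ± 4.28 CPM, while AT2 cells that were not cycling read 19.6 ± 2.00 CPM, the lowest of the 12. In a mesothelial class measured in 1 library Tgfb2 read 122 CPM. Tgfb3 was again a mesenchymal ligand, with 88.1 ± 8.81 CPM in myofibroblast-like and 70.0 ± 9.16 CPM in unknown mesenchymal cells, and 11.6 ± 2.94 CPM in AT2 cells. Smooth muscle cells of the 2 control libraries read 98.6 ± 7.503 CPM for Tgfb3 and the Tgfbi+ class of the 2 knockdown libraries 115 ± 8.51 CPM.

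The receptors were spread more evenly, except the co-receptor. Tgfbr1, the kinase that acts on SMAD2 and SMAD3, differed by 2.68-fold between its highest class, transitional epithelial cells at 274 ± 45.2 CPM, and its lowest, AT2 cells at 102 ± 11.98 CPM, with overlap at every step between. Tgfbr2, the ligand-binding kinase, separated the compartments: its 8 fibroblast classes spanned 145 to 292 CPM over the libraries and its 4 epithelial classes 81.4 to 140 CPM, without overlap. The lowest class was transitional epithelium, at 92.7 ± 7.99 CPM, which was the class with the most Tgfbr1. Tgfbr3 had the widest contrast of the 10 genes, 54.0-fold between the highest and lowest class mean. EMT-like cells read 642 ± 41.3 CPM and stood above the next class without overlap, followed by inflammatory fibroblasts-2 at 488 ± 36.7, Myo1f+ fibroblasts at 469 ± 86.9 and the class named fibroblasts at 441 ± 32.2 CPM, whose ranges overlapped. Inflammatory fibroblasts-1 (405 ± 53.0), cycling fibroblasts (304 ± 13.5), unknown mesenchymal cells (215 ± 20.9) and myofibroblast-like cells (165 ± 10.9 CPM) came next, each of these separated from the class after it. The 4 epithelial classes read 11.9 to 17.7 CPM.

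Among the latency proteins Ltbp1 was highest in the class named fibroblasts and, of the 8 fibroblast classes, lowest in myofibroblast-like cells. The fibroblasts class read 569 ± 15 and Myo1f+ fibroblasts 490 ± 59.8 CPM, whose ranges overlapped and stood above all others of the 12 classes. Transitional epithelial cells, at 344 ± 76.4 CPM, lay among the fibroblast classes. Myofibroblast-like cells read 143 ± 19.8 CPM and the remaining epithelial classes among the 12 read 25.1 to 47.5 CPM. Smooth muscle cells of the 2 control libraries read 410 ± 8.86 CPM for Ltbp1. An epithelial class measured in 1 library, cluster 32 of the deposited annotation, read 159 CPM. Over all 4 libraries Ltbp2 had the ends of the Ltbp1 order exchanged within the 8 fibroblast classes. Myofibroblast-like cells read 218 ± 100 CPM, the highest mean, and the fibroblasts class 60.02 ± 21.3 CPM, the lowest of the 8. The large SD for Ltbp2 reflects the 2 conditions, which averaged 305 CPM in control and 132 CPM in knockdown myofibroblast-like cells. The order differed between the conditions. In the knockdown libraries inflammatory fibroblasts-1 averaged 194 CPM, above myofibroblast-like cells. In the controls unknown mesenchymal cells averaged 68.3 CPM, below the fibroblasts class at 78.2 CPM. In smooth muscle cells of the controls Ltbp2 read 198 ± 17.8 CPM, and in AT2 cells 8.89 ± 5.01 CPM. Ltbp3 was the most even of the LTBPs, with a 3.31-fold range from myofibroblast-like cells (231 ± 52.4 CPM) to cycling AT2 cells (69.9 ± 7.07 CPM). Wnt4+ fibroblasts of the knockdown libraries read 294 ± 8.14 CPM for Ltbp3. Ltbp4 was low, from 44.8 ± 6.34 CPM in myofibroblast-like cells to 9.60 ± 6.32 CPM in transitional epithelium and 2.96 ± 2.24 to 3.19 ± 0.907 CPM in the other epithelial classes.

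**Figure D1:**
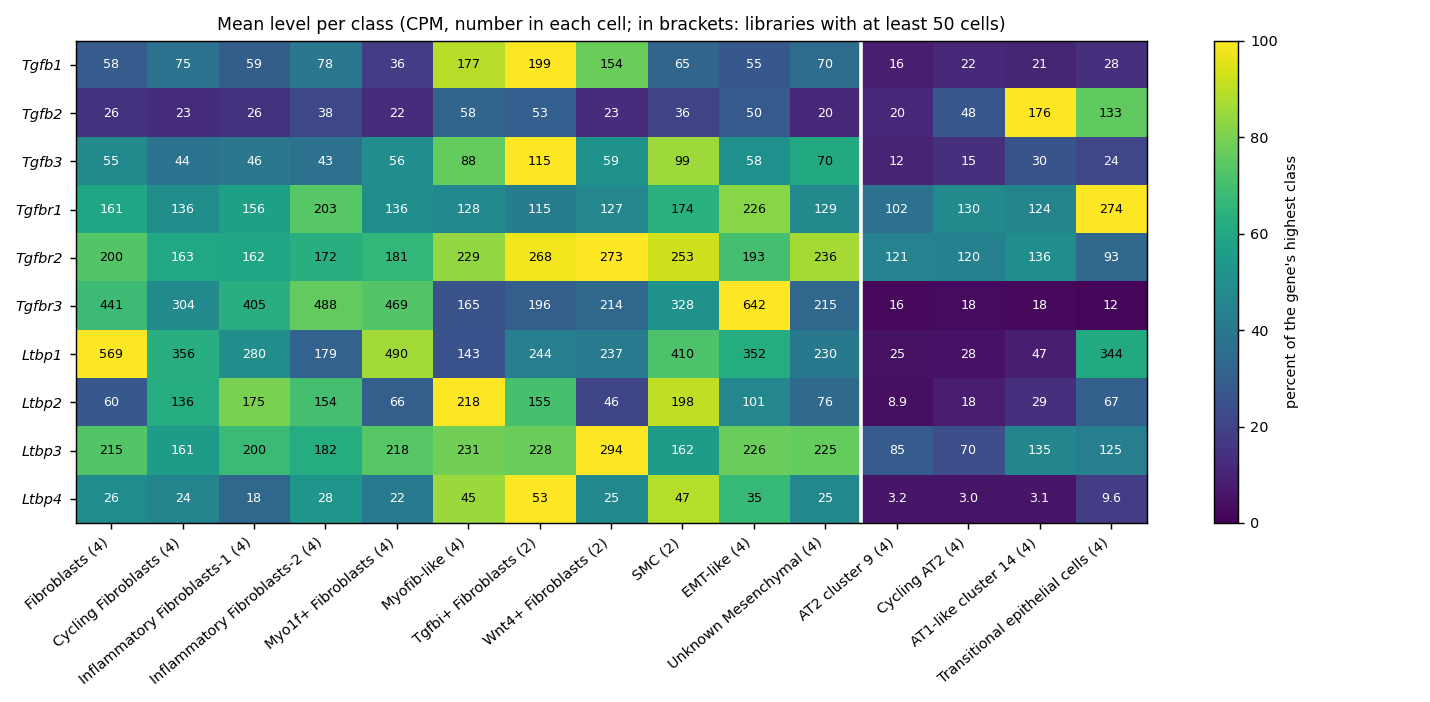
Level of each of the 10 genes by cell class, as the mean CPM over libraries, coloured as percent of that gene's highest class, with the number of libraries in brackets. Tgfb2 is brightest in AT1-like and transitional epithelium, Tgfbr3 in EMT-like cells, Ltbp1 in the fibroblasts class, and Tgfb1, Tgfb3, Ltbp2 and Ltbp4 in myofibroblast-like cells among the classes present in all 4 libraries.

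Some fibroblast transcripts were read in epithelial cells. RNA free in the droplets and doublets were not told apart as their source. The 9 fibroblast markers were read in the epithelium at 13.1, 8.66, 9.15 and 6.55% of their fibroblast level in the 4 libraries (single markers 1.63 to 26.5%), and the 10 AT2 markers in fibroblasts at 2.24 to 4.74% of their epithelial level. Epithelial Tgfbr3 stood at 2.90 to 4.55% of its fibroblast level, below the fibroblast markers in each of the 4 libraries, and is read as background. It had a UMI in 6 to 8.54% of epithelial cells against 67.0 to 71.5% of fibroblasts. Ltbp4 in the epithelium stood at 29.7 and 32.1% of its fibroblast level in the controls but at 9.06 and 11% in the knockdown, where the fibroblast markers read 9.15 and 6.55%, so its knockdown level is close to that of background. The other 8 genes stood above the marker sums in the pooled epithelium, from 20.1 to 31.0% for Tgfb1 to 230 to 325% for Tgfb2. In AT2 cells alone Ltbp1 stood at 8.21, 5.79, 9.54 and 3.76% of its fibroblast level and Ltbp2 at 11.2, 4.92, 9.25 and 5.01%. In cycling AT2 cells Ltbp1 stood at 8.67, 10.9, 7.10 and 3.67%. These levels are close to background.

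In the fibroblasts, 3 of the 10 genes passed the test between knockdown and control: Ltbp2 fell, and Ltbp3 and Tgfb3 rose. The background was 10.6% of 17481 genes tested (edgeR quasi-likelihood test, Benjamini-Hochberg adjusted p under 0.05), and 8 of the 10 genes had control and knockdown libraries that did not overlap, as had 59% of all genes tested. The median log2 change was 0.27 over the 10 genes and 0.01 over all genes tested.

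Of the ligands, Tgfb1 read 45.0, 81.3, 101 and 113 CPM. Both knockdown libraries lay above both controls, but the controls lay far apart from each other, and control 1 was the lowest library for Tgfb1 in 12 of 12 classes. The fold was 1.7 (log2 change 0.76 ± 0.24, adjusted p = 0.0841), which did not pass. Without control 1 the change was 0.40 (adjusted p = 0.164) and without control 2 it was 1.25 (adjusted p = 6.60e-12), while over the fibroblast classes with at least 50 cells in every library it was 0.47 (adjusted p = 0.254). Tgfb2 read 33.0, 31.7, 38.6 and 36.1 CPM, a narrow step without overlap (0.21 ± 0.10, adjusted p = 0.230). Tgfb3 read 50.03, 54.7, 69.3 and 72.3 CPM. The controls averaged 52.4 ± 3.31 and the knockdown libraries 70.8 ± 2.15 CPM (SD, n = 2 each), so the gap was several times the spread within either group. Tgfb3 rose by 0.43 ± 0.11 on the log2 scale (adjusted p = 0.0392). That call was close to the threshold and was lost under 8 of 16 alternative settings. It was lost without control 1 (0.37), knockdown 1 (0.46) or knockdown 2 (0.40), and with cells of at most 20% mitochondrial UMIs (0.28, edgeR adjusted p = 0.257). The others were library totals only, no filter on low counts, equal class weights, and the classes with at least 50 cells in every library.

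The receptors did not pass. Tgfbr1 read 177, 176, 148 and 156 CPM, lower in both knockdown libraries (−0.22 ± 0.12, adjusted p = 0.267). Tgfbr2 read 172, 187, 216 and 234 CPM, higher in both (0.32 ± 0.13, adjusted p = 0.145). The 2 kinases of the receptor complex thus had opposite signs with no overlap between the groups, though neither difference passed. Tgfbr3 read 419, 397, 401 and 392 CPM, with overlapping groups (−0.04 ± 0.13, adjusted p = 0.871). Its sign depended on the scaling and the classes included, at 0.17 after a correction for gene span and 0.13 over the classes with at least 50 cells in every library.

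Ltbp2 had the strongest difference among the latency proteins, at 139, 166, 80.1 and 84.8 CPM. Both knockdown libraries lay well below the lower control and close to each other. The means were 152 ± 19 and 82.4 ± 3.28 CPM, a fold of 0.542 (log2 change −0.88 ± 0.13, adjusted p = 0.0066). Ltbp2 passed under 16 of 16 alternative settings, at −1.12 to −0.68 with adjusted p of 1.38e-07 to 0.0293. Ltbp3 moved the other way, at 159, 183, 257 and 251 CPM. Its 2 knockdown libraries nearly coincided, and the means were 171 ± 17.1 and 254 ± 4.04 CPM, a 1.49-fold rise (0.57 ± 0.13, adjusted p = 0.0331). The rise was lost under 4 of 16 alternative settings: without control 1 (0.48), knockdown 1 (0.55) or knockdown 2 (0.59), and with equal class weights. Ltbp4 read 22.5, 30.3, 34.4 and 34.1 CPM (0.37 ± 0.15, adjusted p = 0.149), with both knockdown libraries above the controls. Its change was 0.18 without control 1 (adjusted p = 0.589) and 0.61 without control 2 (adjusted p = 0.00369). Ltbp1 read 367, 383, 368 and 355 CPM with overlapping groups (−0.05 ± 0.13, edgeR adjusted p = 0.826). Its sign was positive after the correction for gene span (0.25) and over the pooled classes with at least 50 cells in every library (0.09). Tested singly, 7 of these 8 classes had a lower fitted Ltbp1 level in the knockdown.

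**Figure D2:**
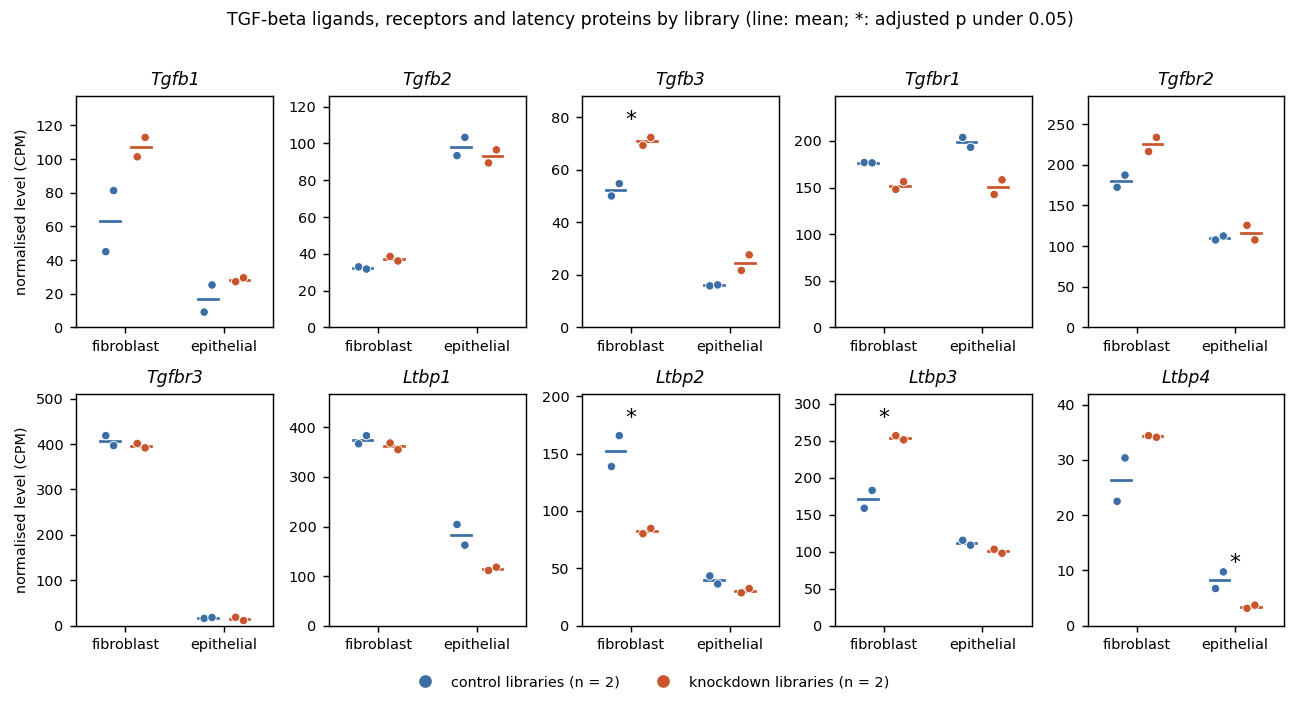
Normalised CPM of each gene in each library, for the fibroblast and the epithelial sums; points are libraries, lines their means, stars mark adjusted p under 0.05, and each panel has its own axis from 0. In fibroblasts Ltbp2 lies lower and Ltbp3 and Tgfb3 lie higher in both knockdown libraries, while Tgfbr3 and Ltbp1 overlap.

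The fibroblast sums pooled classes whose numbers differed between the conditions. Tgfbi+ fibroblasts numbered 5 and 38 cells in the controls and 931 and 404 in the knockdown libraries, and Wnt4+ fibroblasts 7 and 32 against 1362 and 971. Cycling fibroblasts went from 1100 and 1028 to 214 and 201 cells, and smooth muscle cells from 724 and 753 to 48 and 5. The Tgfbi+ and Wnt4+ classes held 22.5 and 16% of the fibroblast Tgfb1 UMIs in knockdown 1 and 15.7 and 19.4% in knockdown 2, against at most 0.382% in the controls. They held 11.7 and 13.4% of Ltbp3 in knockdown 1 and 7.2 and 15.1% in knockdown 2. Scaling the classes with at least 50 cells in every library to the same share of each library left Ltbp2 as the 1 member that passed. The Tgfbi+, Wnt4+ and smooth muscle classes were left out of that setting. The genes were therefore also tested within classes.

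Within the 8 fibroblast classes and 4 epithelial classes tested one at a time by edgeR, 12 of 117 gene and class pairs passed, and 6 of the 12 were Ltbp2. By class the share of all genes tested that passed ran from 0.304% in transitional epithelial cells to 8.23% in the class named fibroblasts. No share pooled over the classes was computed. In the class named fibroblasts 4 of 10 genes passed, where the background was 8.23%. Ltbp2 read 71.2, 82.9, 43.4 and 41.9 CPM in it and fell (−0.85 ± 0.13, adjusted p = 0.00221), while Tgfb3 at 42.5, 47.1, 64.3 and 68.6 (0.57 ± 0.13, adjusted p = 0.0175), Tgfb1 at 36.2, 53.3, 67.9 and 76.1 (0.69 ± 0.17, adjusted p = 0.0282) and Ltbp3 at 167, 187, 257 and 254 CPM (0.53 ± 0.14, adjusted p = 0.0382) rose. Groups of libraries did not overlap for any of the 4, which in the fibroblast sums held for 59% of all genes tested. Different clusters made up most of this class in the 2 conditions: cluster 0 of the deposited annotation held 52.6% of its control cells and 2.29% of its knockdown cells, and cluster 5 held 0.982% and 65.4%.

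In myofibroblast-like cells 2 of 10 genes passed, against a background of 7.33%. Ltbp2 read 287, 311, 134 and 137 CPM and had the largest fall among the fibroblast classes that passed (−1.14 ± 0.16, adjusted p = 0.00029). Ltbp3 read 174, 193, 296 and 271 CPM and rose (0.63 ± 0.16, adjusted p = 0.0238). Cluster 4 made up 57.8% of control and 87.4% of knockdown cells of this class, and in cluster 4 alone Ltbp2 read 181, 217, 113 and 116 CPM (−0.80 ± 0.15, adjusted p = 0.0111). Ltbp3 did not pass in cluster 4 alone (0.41 ± 0.15, adjusted p = 0.177). EMT-like cells also had 2 of 10, where the background was 6.24%. Ltbp2 fell there from 127 and 138 to 75.9 and 64.3 CPM (−0.92 ± 0.15, adjusted p = 0.0017), and Tgfb3 rose from 43.5 and 50.2 to 66.3 and 72.8 CPM (0.57 ± 0.15, adjusted p = 0.0301). Cluster 1 held 87.3% of control and 80.5% of knockdown EMT-like cells, cluster 25 held 8.11% and 19.5%, and cluster 33 held 4.55% and 0%.

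Ltbp2 was the 1 gene of 10 that passed in cycling fibroblasts (150, 195, 101 and 98.3 CPM; −0.79 ± 0.19, adjusted p = 0.0281; background 2.31%) and in Myo1f+ fibroblasts (92.5, 93.0, 43.4 and 47.8 CPM; −1.02 ± 0.26, adjusted p = 0.0227; background 2.48%). In inflammatory fibroblasts-2, where 2.56% of genes passed, Tgfb2 was the 1 of 10, at 29.1, 25.6, 60 and 38.6 CPM (0.87 ± 0.23, adjusted p = 0.0341). The 2 knockdown libraries lay above the controls but differed widely from each other. In inflammatory fibroblasts-1, with a background of 2.53%, 0 of 10 passed by edgeR and 1 had an unadjusted p under 0.05. In unknown mesenchymal cells, with a background of 1.31%, the counts were 0 and 0. No other tool was run on single classes. Ltbp2 was higher in the knockdown in both of these classes, at 135, 170, 169 and 228 CPM in inflammatory fibroblasts-1 (0.38) and 71.6, 62.7, 82.2 and 93.4 CPM in unknown mesenchymal cells (0.40), though neither passed.

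Across the classes Ltbp3 had a higher fitted level in the knockdown in 8 of 8 fibroblast classes (0.25 to 0.63), and Tgfb1 in 8 of 8. For Ltbp3 the libraries did not overlap in 8 of 8. The share of all genes without overlap is not given by class, and in the fibroblast sums it was 59%. Tgfbr1 and Ltbp1 were lower in 7 of 8, Tgfbr2 and Ltbp4 higher in 7 of 8, and Ltbp2 lower in 6 of 8. Tgfb3 and Tgfbr3 were higher in 6 of 8 and Tgfb2 in 4 of 8. How often other genes kept a direction over the classes was not computed. These classes come from the same 4 libraries and do not repeat the experiment. Of 7 alternative settings for each class call, the fall of Ltbp2 passed in 7 in the fibroblasts and EMT-like classes, 6 in myofibroblast-like and cycling AT2 cells, 4 in Myo1f+ fibroblasts and 3 in cycling fibroblasts. The rise of Ltbp3 passed in 2 of 7 in the fibroblasts class and 3 of 7 in myofibroblast-like cells, and was lost in both without control 1, knockdown 1 or knockdown 2. The Tgfb1 call passed in 5 of 7 and was lost without control 1. The Tgfb3 calls each passed in 4 of 7 and were lost without control 1 or knockdown 2. The Tgfb2 call in inflammatory fibroblasts-2 passed in 4 of 7 and was lost without control 2 or knockdown 1. Ltbp2 was lost in cycling fibroblasts without control 2, knockdown 1 or knockdown 2, and in Myo1f+ fibroblasts without control 1, knockdown 1 or knockdown 2. In the 5 single clusters that were large in both conditions (1, 4, 8, 10 and 11, chosen after seeing the cluster sizes) Ltbp2 was lower in 5 of 5 (−0.80 to −0.57), and Ltbp3 higher in 5 of 5 (0.31 to 0.54). Tgfb1, Tgfbr2 and Ltbp4 were also higher in 5 of 5, and Tgfbr1 lower in 5 of 5. By edgeR Ltbp2 passed in clusters 1, 4 and 10 and not in cluster 8 (adjusted p = 0.0605) or cluster 11 (adjusted p = 0.291). Ltbp3 passed in 0 of 5 by edgeR (adjusted p of 0.159 to 0.569). Tgfb3 passed in cluster 1 (edgeR adjusted p = 0.0190) and cluster 8 (0.0166), Ltbp4 in cluster 1 (0.0375) and Tgfb2 in cluster 10 (0.0331). The share of all genes that passed is not given by cluster.

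**Figure D3:**
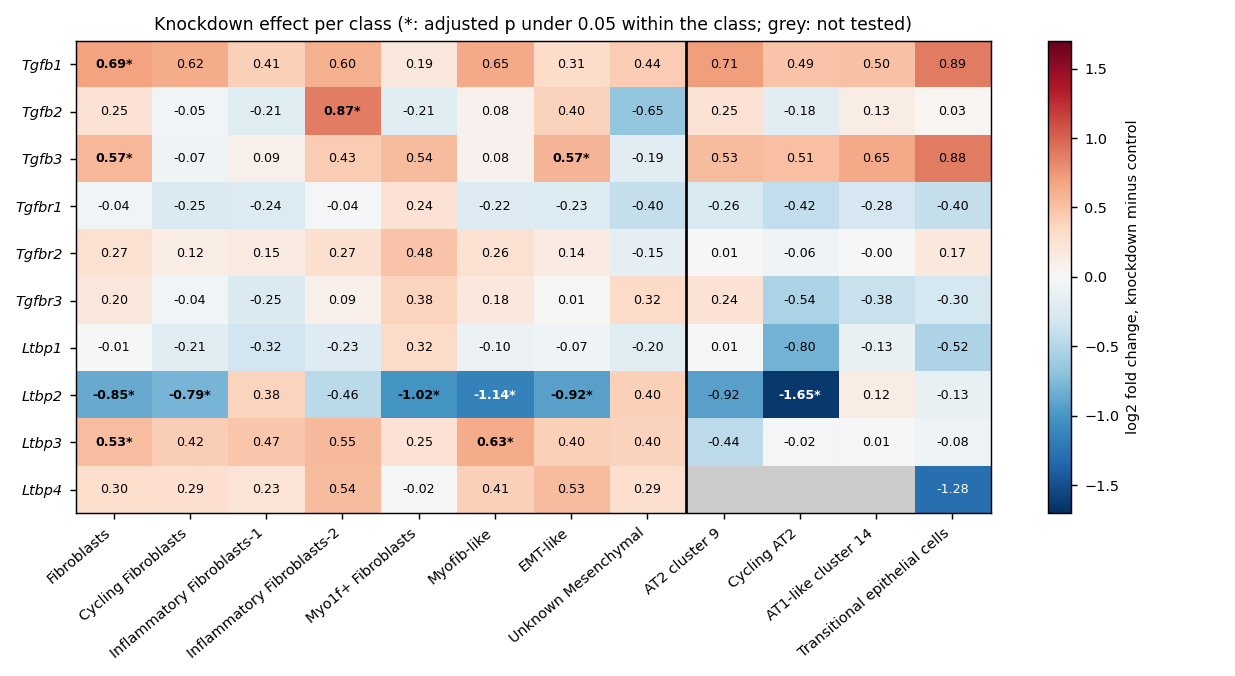
Log2 change of each gene between knockdown and control in each of the 12 classes, with calls at adjusted p under 0.05 marked. The Ltbp2 row is negative in most classes and the Ltbp3 row positive in the 8 fibroblast classes.

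In the epithelium, whose cells were wildtype in both conditions, 1 of the 10 genes passed, where the background was 1.44% of 13952 genes tested. That gene was Ltbp4, which fell at 6.72, 9.73, 3.14 and 3.72 CPM (−1.26 ± 0.27, adjusted p = 0.0350). Its sums rested on 35 to 83 UMIs per library, and the knockdown level is close to background as given above. The call was lost under 5 of 15 alternatives: without control 2 (−0.99, adjusted p = 0.182), with DESeq2 (adjusted p = 0.0741), with the gene-span correction alone (0.0547) or with a replicate block (0.103), and with equal class weights (0.147). Ltbp1, which within the epithelium was highest in transitional cells, read 204, 162, 111 and 118 CPM and lay lower in both knockdown libraries without passing (−0.68 ± 0.18, adjusted p = 0.0921). It passed under 6 of 15 alternative settings, for example −0.84 without control 2 (adjusted p = 0.0317). Log2 changes in the epithelium fell with gene span over all genes (Spearman rho −0.406 across 13943 genes, which are not independent; −0.231 in fibroblasts), and with the span correction the epithelial Ltbp1 change was −0.32 (adjusted p = 0.520). The fibroblast markers read in the epithelium were also lower in the knockdown libraries, at 961, 824, 647 and 423 CPM. Basal-cell markers read 36.3, 27.6, 3.76 and 9.35 CPM in the epithelium, with 3 of 4 lower by the test, and airway secretory markers 1357, 317, 18 and 587 CPM. The part of these values in the Ltbp1 and Ltbp4 differences was not tested.

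The ligands in the epithelium did not pass. Tgfb1 read 9.11, 25.2, 27.2 and 29.5 CPM (0.74 ± 0.31, adjusted p = 0.378), with control 1 again the lowest library and the other 3 close together. Its change was 0.17 without control 1 (adjusted p = 0.9999) and 1.62 without control 2 (adjusted p = 3.47e-07). Tgfb2, the ligand with its highest levels in the epithelium, read 93.4, 103, 89.5 and 96.5 CPM with overlapping groups (−0.08 ± 0.16, adjusted p = 0.867). Tgfb3 read 15.8, 16.2, 21.7 and 27.6 CPM, higher in both knockdown libraries (0.62 ± 0.18, adjusted p = 0.152).

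Among the receptors and other latency proteins Tgfbr1 read 204, 193, 143 and 158 CPM, below the controls in both knockdown libraries (−0.40 ± 0.17, adjusted p = 0.397). Tgfbr2 at 108, 112, 126 and 108 CPM overlapped between the groups (adjusted p = 0.863), as did Tgfbr3 at 16, 17.9, 18.4 and 11.3 CPM (−0.17 ± 0.22, adjusted p = 0.787). Ltbp2 at 43.3, 36.4, 28.6 and 32.4 CPM (−0.39 ± 0.16, adjusted p = 0.379) and Ltbp3 at 115, 109, 103 and 97.9 CPM (−0.16 ± 0.16, adjusted p = 0.725) lay lower in both knockdown libraries without passing. In the epithelial sums 44.2% of all genes tested had control and knockdown libraries that did not overlap. The median change of the 10 genes in the epithelium was −0.16, and 0.02 over all genes tested.

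By class, cycling AT2 cells gave the 1 epithelial call, 1 of 9 genes tested against a background of 1.34%. Ltbp2 read 24.5, 30.8, 9.56 and 7.19 CPM there and fell (−1.65 ± 0.31, adjusted p = 0.001), a call that was lost without control 2 (adjusted p = 0.0645). These levels rest on 35, 41, 38 and 11 UMIs and stood at 17.1, 18.4, 11.9 and 8.46% of the fibroblast Ltbp2 level, where the fibroblast markers read 13.1, 8.66, 9.15 and 6.55%, so the knockdown levels are close to background. The counts were 0 of 9 in AT1-like cells (background 0.51%; 1 at an unadjusted p under 0.05), 0 of 9 in AT2 cells (background 0.922%; 3) and 0 of 10 in transitional cells (background 0.304%; 5), all by edgeR. Of the 5 in transitional cells, Tgfb3 at 17.7, 16.7, 31.5 and 32.2 CPM had the clearest gap (0.88 ± 0.19, adjusted p = 0.1).

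The response of 3 genes differed between the compartments, where 3.55% of 17188 genes did. The test was the interaction of knockdown and compartment in edgeR, with the library as a block, given as the fibroblast change minus the epithelial change. For Ltbp4 the difference was 1.62 ± 0.20 (adjusted p = 0.0018), from a higher level in fibroblasts and a lower one in epithelium, and it passed under 13 of 13 alternatives (1.24 to 1.75). The alternatives for the interaction did not include the gene-span correction or equal class weights. Under both of these the epithelial Ltbp4 call was lost. For Ltbp3 it was 0.70 ± 0.12 (adjusted p = 0.0095), and without control 1 it was 0.56 (adjusted p = 0.181). For Ltbp1 it was 0.58 ± 0.14 (adjusted p = 0.0448), from a fibroblast level near that of the controls and a lower epithelial one. The Ltbp1 difference was lost under 4 of 13 alternatives: without control 1 (0.39), without knockdown 1 (0.61), with DESeq2 and with cells of at most 20% mitochondrial UMIs. Ltbp2, lower in both compartments, had a difference of −0.52 ± 0.16 that did not pass (adjusted p = 0.113). For the 3 ligands and 3 receptors the differences ran from −0.20 to 0.25 and did not pass (adjusted p of 0.368 to 0.914).

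**Figure D4:**
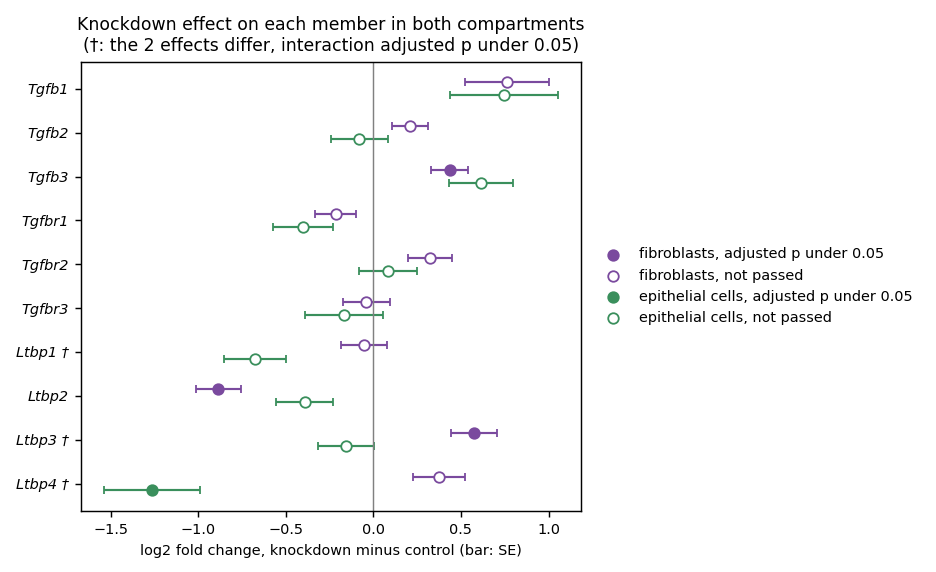
Log2 change of each gene between knockdown and control in fibroblasts and in epithelium, with standard errors as bars, filled points for adjusted p under 0.05 and daggers where the 2 changes differed by the interaction test. Ltbp3 and Ltbp4 lie on opposite sides of 0 in the 2 compartments, and Ltbp2 lies below 0 in both.

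The rest of the pathway was read through 4 lists. Of 18 tested activators and matrix anchors (integrins, thrombospondin, fibrillins and proteases), 0 passed in the fibroblasts by edgeR, 4 had an unadjusted p under 0.05, and DESeq2 and limma voom also gave 0. Of 9 receptor partners and decoys 1 fell, Cd109, a membrane protein that binds TGF-beta, at 2.46, 2.68, 0.993 and 0.948 CPM (−1.40 ± 0.21, adjusted p = 0.00704). Of 15 Smads and their regulators 2 fell and 0 rose: Zfyve9, the SARA adaptor that brings SMAD2 and SMAD3 to the receptor (−0.45 ± 0.11, adjusted p = 0.0403), and Ldlrad4, an inhibitor of that recruitment, at 182, 146, 116 and 86.7 CPM (−0.70 ± 0.17, adjusted p = 0.0420). The counts of 1 of 9 and 2 of 15 lie near the 10.6% of all genes tested that passed in fibroblasts. The median changes of these 3 lists were 0.09, 0.20 and −0.18, beside 0.01 over all genes.

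Of 20 response genes in the fibroblasts 3 fell and 1 rose by edgeR, against a background of 10.6%, with a median of −0.24. DESeq2 called 9 of the 20 and limma voom 4. Postn, the matricellular protein periostin, read 24.6, 27.7, 13.0 and 13.7 CPM (−0.97 ± 0.12, adjusted p = 0.00358), and Itga11, a collagen-binding integrin chain, read 3.55, 4.11, 1.12 and 1.45 CPM (−1.58 ± 0.21, adjusted p = 0.0046). Lox, the collagen and elastin crosslinking oxidase, read 153, 182, 103 and 113 CPM (−0.64 ± 0.13, adjusted p = 0.0235). Each of these 3 was lower in both knockdown libraries than in both controls. The gene that rose was Cdkn2b, a cell-cycle inhibitor, at 16.6, 19, 24.3 and 27.0 CPM (0.53 ± 0.12, adjusted p = 0.0328). Some genes of this list, such as Ccn2, are also known targets of YAP and TAZ.

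In the epithelium 2 of 20 response genes fell and 0 rose by edgeR (background 1.44%; DESeq2 called 3 and limma voom 1): Postn at 5.43, 4.69, 0.862 and 1.062 CPM (−2.42 ± 0.35, adjusted p = 0.00201) and Nox4, an oxidase that makes hydrogen peroxide, at 10.4, 8.44, 4.81 and 4.46 CPM (−1.02 ± 0.24, adjusted p = 0.0495). Postn is a mesenchymal gene, and its epithelial level is low. By edgeR 0 of 17 activators and anchors passed (5 at an unadjusted p under 0.05; DESeq2 0, limma voom 0), 0 of 8 partners and decoys (3; 0 and 0) and 0 of 15 Smads and regulators (3; DESeq2 1, limma voom 0). The medians of the 4 lists were −0.30, −0.31, −0.20 and −0.30.

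**Figure D5:**
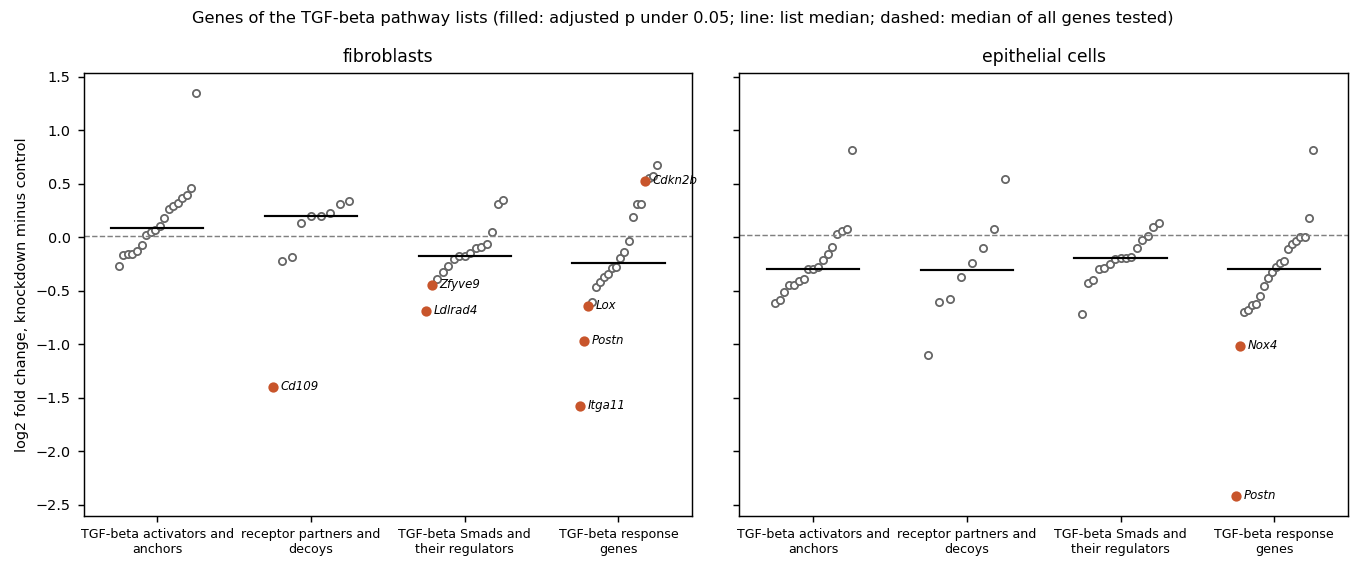
Log2 change between knockdown and control of each gene of the 4 TGF-beta pathway lists, in fibroblasts and in epithelium, with genes that passed filled and named, list medians as lines and the median of all genes dashed. The genes that passed lie below 0, except Cdkn2b in fibroblasts.

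The genes most like each member across classes were found by Pearson correlation of log2(CPM + 1) over 48 sums, 12 classes in each of 4 libraries, among 11124 genes. The sums of 1 library share its depth, so the values are a description. Tgfb1 was most like Fxyd5 (0.852) and Enpp1 (0.848), Tgfb2 like Myo16 (0.844) and Golim4 (0.825), and Tgfb3 like Fzd1 (0.913) and Rasl11b (0.909). Tgfbr1 had the lowest values, with Cdk17 (0.814) and Rdh10 (0.793). Tgfbr2 was most like A4galt (0.907). Tgfbr3, with its large contrast between fibroblasts and epithelium, reached 0.989 with both Nxn and Heg1. Of the latency proteins, Ltbp1 was closest to Ghr (0.925) and Fblim1 (0.910), Ltbp2 to Inhba (0.938) and Lox (0.937), Ltbp3 to Psap (0.938) and Ctsf (0.917), and Ltbp4 to Mxra7 (0.935) and Fscn1 (0.930). Lox, the second gene for Ltbp2, was also among the response genes that fell in the fibroblasts.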

How the data were processed

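The 4 libraries comprised 2 control and 2 knockdown libraries. The deposited matrix holds whole-number counts, UMIs per gene and cell, with no normalization, as deposited by the authors. The submitters' processing notes name the builds GRCm38 and mm10; no source consulted states the aligner, the counter or how introns and strand were handled. The authors' deposited cell table gave each cell's library, class and cluster, the percentage of mitochondrial UMIs and a doublet enrichment ratio, all made by the authors. Of its columns of cell values 54 were not used. Matrix sums equalled the deposited totals in 45936 of 45936 cells, and 1073 of 44852 distinct barcodes occurred in more than 1 library. Doublets were treated by the authors only as far as that ratio shows, and no caller was run here.

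The authors' AT2 class was split by deposited cluster, because its clusters differed in markers: cluster 9 was used as AT2 and cluster 14 as AT1-like, cluster 32 stayed unnamed, and clusters 19 and 23, which carried fibroblast markers with median UMIs of 9364 and 10070 and doublet ratios of 2.29 and 2.38, were left out. Counts were summed per library over each compartment and over each class with at least 50 cells in every library. The sums were tested with the edgeR 4.0.16 quasi-likelihood test (R 4.3.3, TMM, filterByExpr), with Benjamini-Hochberg adjustment over all genes tested and a threshold of 0.05. Errors on log2 changes are standard errors. The compartment difference was an interaction with library as a block. The scripts were tested on simulated data with 200 changed genes per comparison. Alternatives were DESeq2 1.42.0, limma 3.58.1 (voom), other scaling, no filter on low counts, a replicate block, an offset for gene span, and each library left out. Further alternatives were equal class weights, cells of at most 20% mitochondrial UMIs, and other class memberships. Equal class weights covered only the classes with at least 50 cells in every library. The replicate block, the span offset and equal class weights were not run on the interaction.

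All 10 members are named in each comparison, genes of the pathway lists where they passed, and for each member the 2 most similar genes; 1 gene of the response list and 1 similar gene are not reported here. The members and lists were chosen with earlier results of these data known. Positions are from GENCODE M21 and promoters from RefSeq (GRCm38.p6). Tgfb3, Tgfb2, Ltbp2 and Ltbp3 overlap genes of the deposited matrix on the other strand by 182 to 5149 bases, and without known strandedness reads of these pairs cannot be told apart.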

Additional observations from a re-analysis of the deposited data

Results flagged for a closer look

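For 3 of the latency proteins the response to the fibroblast knockdown differed between fibroblasts and epithelium by a direct test of that difference (edgeR interaction, adjusted over 17188 genes). The fibroblast change minus the epithelial change was 1.62 on the log2 scale for Ltbp4 (adjusted p = 0.0018), 0.70 for Ltbp3 (adjusted p = 0.0095) and 0.58 for Ltbp1 (adjusted p = 0.0448). The fibroblast value was the higher in each case, and each library contributed both compartments. Without control 1 the values for Ltbp3 (0.56) and Ltbp1 (0.39) did not pass. The Ltbp1 value was lost under 4 of 13 alternatives, also without knockdown 1 (0.61), with DESeq2 and with cells of at most 20% mitochondrial UMIs. The gene-span offset and equal class weights were not run for these differences. The epithelial Ltbp4 level in the knockdown is close to background.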

How the results depend on the processing

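Counts of the 10 genes that passed depended on the setting. In fibroblasts 3 passed, against 7 with a replicate block, 7 with the gene-span offset and replicate block, 1 with equal class weights, and 1 to 5 with a library left out (1 without control 1, knockdown 1 or knockdown 2, and 5 without control 2). In the epithelium 1 passed, against 2 with library totals only, 4 with no filter, 2 with the replicate block, 4 with the AT2 class whole, and 1 to 3 with a library left out. It was 0 by edgeR with the span offset (3 at an unadjusted p under 0.05), with span offset and block (4) and with equal class weights (5). The number of class calls, 12 with all libraries, was 6 to 19 with a library left out (7 without control 1, 19 without control 2, 6 without knockdown 2). Over all genes the fibroblast count of 1860 became 5820 with the block, 4731 with span offset and block, 1001 with equal class weights and 998 (without knockdown 2) to 3666 (without control 2) with a library left out; the epithelial count of 201 became 344 with library totals, 528 with no filter, 329 with the block, 90 with span offset and block, 111 with equal class weights and 780 with the AT2 class whole; and the interaction count of 610 became 1303 with no filter, 288 with DESeq2 and 1010 with the AT2 class whole. The cause was not tested.

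Small changes reversed. In fibroblasts Tgfbr3 was 0.17 with the span offset, 0.17 with offset and block, 0.084 with equal class weights, 0.13 over classes of at least 50 cells in every library (chosen after seeing the data) and −0.079 to 0.00077 with a library left out; Ltbp1 was 0.25 with the span offset, 0.25 with offset and block and 0.089 over the same large classes. In the epithelium Tgfb2 was 0.040 with the span offset, 0.041 with the block added, 0.071 with equal class weights and 0.10 with the AT2 class whole; Tgfbr3 was 0.048 and 0.040 with the offset without and with the block and −0.59 to 0.11 with a library left out; Tgfbr2 was −0.016 with the AT2 class whole and −0.030 to 0.18 with a library left out. The compartment difference of Tgfb1 was 0.29 with cells of at most 20% mitochondrial UMIs, 0.30 with the AT2 class whole, 0.030 with fibroblast and myofibroblast classes only and −0.44 to 0.20 with a library left out; that of Tgfb3 was 0.21 with the AT2 class whole, and that of Tgfbr3 −0.16 to 0.59 with a library left out.

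The replicate block also called Tgfb1 (0.82, edgeR adjusted p = 0.00113), Tgfb2, Tgfbr2 and Ltbp4 in fibroblasts and Ltbp1 in the epithelium (−0.67, adjusted p = 0.0327). Libraries with the same number deviated together only weakly (r = 0.115 over genes in fibroblasts, 0.0828 in epithelium). The labels give such libraries only a number in common, and whether they share a batch was not tested. Of all log2 changes recomputed, 364 kept direction and side of the threshold, 25 reversed direction, 22 lost a call and 29 gained one. The epithelial Ltbp4 sums rest on 35 to 83 UMIs per library, and 2 libraries a group limit what can be detected.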
